A study of Homo sapiens with 4 samples.

Results

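The nuclear-encoded subunits of the 5 complexes of the mitochondrial respiratory chain were followed on arrays of 2 cutaneous T cell lymphoma lines treated or not with interleukin-32γ (IL-32γ). Members were all probe sets whose single gene symbol in the array's annotation was that of a complex I subunit (NDUFA, NDUFB, NDUFC, NDUFS and NDUFV with a number), SDHA, SDHB, SDHC or SDHD of complex II, CYC1 or a UQCR gene of complex III, a COX4I, COX5, COX6, COX7 or COX8 gene of complex IV, or an ATP5 gene of complex V, with assembly factors and pseudogenes left out. The rule took 155 of 54675 probe sets, for 80 of the 19775 genes with a single symbol. Of these, 151 probe sets belonged to 77 protein-coding genes, and 4 belonged to the RNA genes NDUFB2-AS1, NDUFV1-DT and NDUFV2-AS1, which lie beside a subunit gene and encode no subunit. All counts below are over the 151 protein-coding probe sets.

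MyLa is an established line of mycosis fungoides, the commonest cutaneous T cell lymphoma, and HH is another established cutaneous T cell lymphoma line. The groups were MyLa with 5 ng/ml of IL-32γ, MyLa without it (control), HH with 5 ng/ml of IL-32γ and HH without it (control), all held in 0.1% serum over 40 hours, so low serum was common to treated and control cells. IL-32 in mycosis fungoides is the subject of the series, and the comparisons asked what this cytokine does to the transcripts of each line and how the lines differ. Each group was a single array of biotin-labelled total RNA, so a difference within a line has no replicate check, carries no test, and is given as a value. Values are log2 expression values, on which a difference of 1 is 2-fold, and 5 or more was taken as measured.

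The respiratory chain moves electrons from NADH (complex I) and succinate (complex II) through ubiquinone to complex III, and on through cytochrome c to complex IV, where oxygen is reduced. Complexes I, III and IV pump protons across the inner mitochondrial membrane, and complex V, the ATP synthase, uses the gradient to make ATP. A few subunits are encoded in mitochondrial DNA, while those described here are encoded in the nucleus, where the factors NRF1, GABPA (an ETS factor), YY1 and SP1 are known to bind promoters of many of them.

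Promoters of 65 of the 77 genes were in the RefSeq table (assembly GRCh38.p14), each from 250 bases before to 50 bases after the gene's start. Those below, apart from UQCRC1, hold the NRF1 letters GCGCATGCG on either strand. Their genes were named for the size of a difference or for passing a threshold. COX6A1, named as the partner of a tissue isoform, also holds these letters and is not shown. Capitals mark the match, and where the letters read the same on both strands the capitals cover both overlapping matches. They stand 41 to 33 bases before the start in ATP5MC2 (chr12:53676034-53676333, minus strand), 159 to 150 before it in NDUFB4 (chr3:120596086-120596385, plus strand), 46 to 38 before it in NDUFS6 (chr5:1801157-1801456, plus strand), 74 to 66 before it in NDUFS7 (chr19:1383657-1383956, plus strand) and 110 to 101 before it in SDHD (chr11:112086623-112086922, plus strand). UQCRC1 (chr3:48609597-48609896, minus strand) was added after its value was seen, for the largest difference of any member in MyLa, with capitals at the YY1 letters AAGATGGCG, 24 to 32 bases after the start.
ATP5MC2: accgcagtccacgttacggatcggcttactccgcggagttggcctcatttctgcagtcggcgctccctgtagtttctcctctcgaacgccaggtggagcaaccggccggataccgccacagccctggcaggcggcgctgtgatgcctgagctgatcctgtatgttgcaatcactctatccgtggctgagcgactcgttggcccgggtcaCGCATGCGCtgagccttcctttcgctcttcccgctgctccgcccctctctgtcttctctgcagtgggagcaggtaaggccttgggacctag
NDUFB4: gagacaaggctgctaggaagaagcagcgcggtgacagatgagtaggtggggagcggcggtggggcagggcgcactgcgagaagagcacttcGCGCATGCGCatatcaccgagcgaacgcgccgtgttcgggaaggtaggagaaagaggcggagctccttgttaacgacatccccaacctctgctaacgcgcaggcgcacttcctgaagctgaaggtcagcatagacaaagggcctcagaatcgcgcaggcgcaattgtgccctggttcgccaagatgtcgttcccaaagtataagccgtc
NDUFS6: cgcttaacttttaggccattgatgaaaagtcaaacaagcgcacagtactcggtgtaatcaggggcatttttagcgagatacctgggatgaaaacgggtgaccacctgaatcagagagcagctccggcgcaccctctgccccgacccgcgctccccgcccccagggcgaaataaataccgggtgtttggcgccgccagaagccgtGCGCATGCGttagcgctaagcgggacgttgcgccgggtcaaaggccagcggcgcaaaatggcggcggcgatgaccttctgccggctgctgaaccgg
NDUFS7: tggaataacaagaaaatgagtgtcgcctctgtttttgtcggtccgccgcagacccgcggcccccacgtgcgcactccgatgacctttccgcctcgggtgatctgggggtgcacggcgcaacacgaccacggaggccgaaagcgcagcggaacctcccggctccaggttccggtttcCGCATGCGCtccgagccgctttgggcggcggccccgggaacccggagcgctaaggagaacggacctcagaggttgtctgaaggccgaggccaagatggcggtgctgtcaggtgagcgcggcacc
SDHD: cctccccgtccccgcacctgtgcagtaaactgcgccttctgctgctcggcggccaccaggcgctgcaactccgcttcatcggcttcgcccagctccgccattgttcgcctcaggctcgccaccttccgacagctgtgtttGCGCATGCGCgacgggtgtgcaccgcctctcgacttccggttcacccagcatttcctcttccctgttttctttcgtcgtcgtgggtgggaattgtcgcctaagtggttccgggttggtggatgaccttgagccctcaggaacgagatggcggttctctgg
UQCRC1: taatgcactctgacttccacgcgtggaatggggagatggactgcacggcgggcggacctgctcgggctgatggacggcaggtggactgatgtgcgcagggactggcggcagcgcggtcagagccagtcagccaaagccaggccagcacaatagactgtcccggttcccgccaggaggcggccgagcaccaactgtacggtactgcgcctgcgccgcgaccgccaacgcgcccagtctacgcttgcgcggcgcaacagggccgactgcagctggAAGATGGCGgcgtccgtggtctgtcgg

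Each motif was searched on both strands of the same 300-base window in all protein-coding promoters of the table. The NRF1 letters were in 10 of 65 subunit promoters (15.4%), against 2.36% of 22198 promoters. The ETS letters CCGGAAG were in 18 (27.7%), against 12.8%. The YY1 letters were in 7 (10.8%), against 2.41%, and the SP1 letters GGGCGG in 40 (61.5%), against 56.3%. Matches of different motifs overlapped in 1 subunit promoter, and the median GC content was 61.0% in subunit promoters and 62.3% in all. These matches are descriptions of letters in a window, not binding sites. Over the 61 genes with a promoter and a measured response, the 10 with the NRF1 letters had a median IL-32γ difference of 0.23 in MyLa, and the 51 without them had 0.15. The 7 with the YY1 letters had a median of 0.24, and the 54 without them had 0.17, so genes with either motif lay within the range of those without, except UQCRC1, which holds the YY1 letters.

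**Figure D1:**
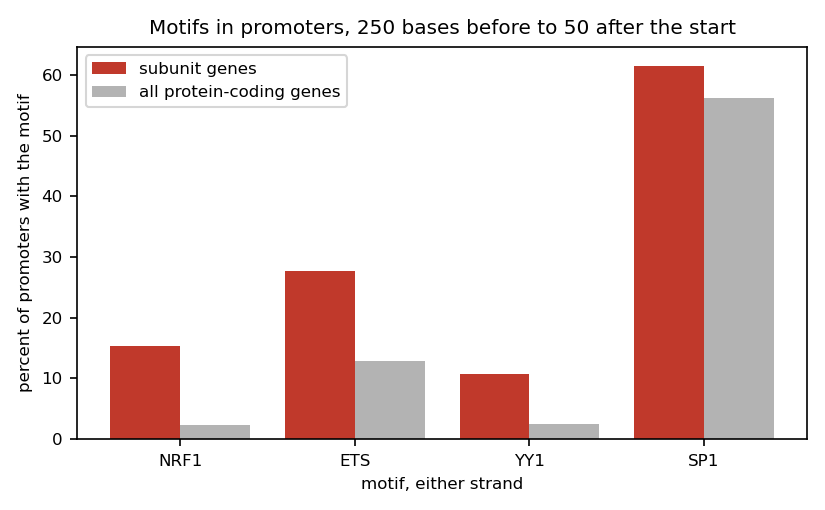
Percent of promoters (y axis) holding each motif on either strand (x axis), for 65 subunit genes and for 22198 promoters of protein-coding genes. Repeats of a gene were not removed from the latter. The NRF1 letters are in 15.4% of subunit promoters and 2.36% of all, while the SP1 letters are in 61.5% and 56.3%.

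The arrays held 23433 to 23686 probe sets at 5 or more. Of 9 T cell markers with a probe set, 4 were measured in MyLa (CD2, CD3D, CD3G and PTPRC) and 7 in HH (these and CD3E, CD4 and CD5), while LCK and CD7 were below 5 on all 4 arrays. B cell and striated muscle markers were below 5 throughout. ITGAM of the myeloid list was measured in MyLa, KRT10 of the keratinocyte list in both lines, and COL1A1 and COL3A1 of the fibroblast list in MyLa, with 1 of these 2 on the HH IL-32γ array as well. The 5′ control probe set of β-actin (ACTB) had values of 11.81 with IL-32γ and 10.12 without it in MyLa, and 13.58 and 12.69 in HH, while its 3′ probe set lay between 15.07 and 15.27 on all arrays. The 5′ probe set of GAPDH was higher by 0.68 with IL-32γ in MyLa and by 0.15 in HH. The 5′ signal of both control genes was thus higher with IL-32γ, more so in MyLa, and its part in the differences below was not tested.

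Most subunit probe sets were measured on every array. Of the 151 probe sets, 123 (81.5%) reached 5 on all 4 arrays, against 20932 of all 54675 (38.3%), 24 were below 5 on all, and 4 were at 5 or more on 1 to 3 arrays. These 4 were NDUFB6 1559042_at, NDUFB7 211407_at, NDUFC1 232146_at and UQCRC2 241755_at, none of them its gene's brightest. For 71 of the 77 genes a probe set was measured on every array, and the brightest probe set of the gene averaged 12 or more in 56 and 14 or more in 22.

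The 6 genes below 5 on every array were all isoforms of complex IV subunits known from particular tissues. COX6A2 and COX7A1 are the heart and skeletal muscle forms, COX6B2, COX7B2 and COX8C are known from testis, and COX4I2 from lung and low oxygen. COX6A2, COX6B2, COX7A1 and COX7B2 had 2.13 on all 4 arrays, the lowest value of any probe set. COX8C had 2.13 with IL-32γ and 2.67 without it in MyLa, and 2.13 on both HH arrays, and COX4I2 had 3.14 and 3.72 in MyLa, and 2.22 on both HH arrays. All of these lie below the level taken as measured, so no difference is drawn from them.

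Their broadly expressed partners were measured everywhere with small differences. COX6A1, partner of COX6A2, had 13.66 with IL-32γ and 13.64 without it in MyLa, and 13.90 and 13.88 in HH. COX6B1 had 14.42 and 14.37 in MyLa, and 14.36 and 14.35 in HH, and COX8A had 14.35 and 14.25 in MyLa, and 14.43 and 14.40 in HH. COX7A2 had 13.90 and 13.70 in MyLa, and 13.97 and 14.01 in HH. COX7A2L, which takes part in joining complexes III and IV, had 14.05 and 13.85 in MyLa, and 13.93 and 13.90 in HH. The brightest probe set of COX4I1, a large structural subunit, had 14.32 and 14.12 in MyLa, and 13.92 and 13.97 in HH. The brightest probe set of COX7B had 14.08 and 13.87 in MyLa, and 14.10 and 14.11 in HH. Levels of different probe sets are not set against each other, since each probe set has its own sensitivity.

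In MyLa, IL-32γ came with higher values for a group of subunits spread over the complexes, led by UQCRC1 of complex III at 5.30-fold. Of 126 probe sets measured on at least 1 MyLa array, 14 were higher by 1.5-fold or more (11.1%), against 11% of all 24232 probe sets. Lower values by 1.5-fold or more were found for 7 (5.56%), against 9.13% of all probe sets. The share past the threshold was thus at the background for higher values and below it for lower ones. The median difference was 0.09, against -0.05 for all probe sets, and 77 of the 126 lay above 0 (61.1%), against 44.1% of all. RNA of a whole culture was measured, so fewer cells carrying a transcript and less of it per cell cannot be told apart.

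With each gene taken at its brightest probe set, the lean to higher values was plainer. Among 71 genes, 10 passed 1.5-fold upward (14.1%), against 7.77% of all 10497 genes. Only ATP5MF was lower (1.41%), against 7.65% of all genes, and 52 of the 71 lay above 0 (73.2%), against 40.7% of all genes. The other 55 probe sets of subunit genes held 4 higher and 6 lower, with 25 above 0 (45.5%). The kind of probe set moved with this: of 61 members whose names end in _s_at, _x_at or _a_at, which can match several transcripts, 78.7% lay above 0 with a median of 0.19, while of the other 65 members 44.6% lay above 0 with a median of -0.04. Over all probe sets of the 2 kinds, 48.6% and 41.2% lay above 0.

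UQCRC1, a core protein of complex III, had a log2 value of 9.57 with IL-32γ and 7.16 without it in MyLa, and 10.09 and 10.18 in HH. The MyLa control array alone was low, and the difference within MyLa was 2.41 against -0.09 in HH. UQCRC1 has a single probe set (201903_at), so no other probe set of the gene could be set beside it. Other subunits of complex III had smaller differences. CYC1, the cytochrome c1 subunit, had 11.65 and 11.69 in MyLa, and UQCRC2, the other core protein, had 13.84 and 13.81. The 13 measured probe sets of complex III had a median difference of -0.02.

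Complex I held 6 higher and 2 lower of 48 probe sets, with a median difference of 0.14. Counts of this and the other complexes stand against 11% higher and 9.13% lower over all probe sets in MyLa. NDUFA3, an accessory subunit of the membrane arm, had 11.15 with IL-32γ and 9.79 without it in MyLa, and 11.15 on both HH arrays. NDUFS7, a core subunit whose iron-sulphur cluster passes electrons to ubiquinone, had 8.05 and 6.95 in MyLa, and 9.03 and 8.96 in HH. In both, the MyLa control array was the lowest of the 4, which selection for a higher MyLa value with IL-32γ favours. The fold in MyLa was 2.56 for NDUFA3 and 2.14 for NDUFS7. NDUFC1, another accessory subunit, had 12.41 and 11.48 in MyLa, and 10.29 and 10.43 in HH, so here both MyLa arrays lay above both HH arrays.

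The remaining higher members of complex I were accessory subunits with differences of 0.62 to 0.89 in MyLa. NDUFA7 had 11.61 with IL-32γ and 10.72 without it in MyLa, and 11.20 and 11.24 in HH at its brightest probe set, 202785_at. Its dimmer 1557532_at differed by only 0.09 in MyLa. NDUFB7 had 12.74 with IL-32γ in MyLa, higher by 0.74 than without it, and 12.39 and 12.25 in HH. NDUFS6, which binds zinc, had 13.84 and 13.22 in MyLa, and 13.82 and 13.85 in HH. The MyLa control array was the lowest of the 4 at the brightest probe set of each of these 3 genes, which the same selection favours. The core and accessory subunits differed in their medians. The 5 core genes had a median of -0.22 at their brightest probe sets, 2 of them above 0, while the 27 accessory genes had a median of 0.19, 21 of them above 0. NDUFS1 had 11.50 and 11.84 and NDUFV2 had 12.96 and 13.30 in MyLa with and without IL-32γ.

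Complex V held 5 higher and 4 lower of 36 probe sets, where 11% of all probe sets were higher and 9.13% lower. Its median was 0.04. ATP5MC2, which encodes the c subunit of the rotor ring, had 13.93 with IL-32γ and 12.52 without it in MyLa, and 13.82 and 13.65 in HH, so 3 arrays lay close together above the MyLa control array. ATP5IF1, the inhibitor that blocks ATP hydrolysis by the enzyme when the gradient is lost, had 12.39 and 11.27 in MyLa, and 12.14 and 12.20 in HH, at its brightest probe set. Its 2 other probe sets differed from each other, with 11.60 and 10.99 in MyLa for 223338_s_at and 10.48 and 10.72 for 223339_at. ATP5F1D, the δ subunit of the central stalk, was higher in MyLa at both of its probe sets, by 0.78 and 0.98, with HH differences of -0.14 and -0.18. ATP5F1A and ATP5F1B, which form the catalytic head, had MyLa differences of -0.11 and -0.18. The 4 genes of the peripheral stalk had a median of 0.11 and the 5 of the membrane accessory subunits a median of 0.20 at their brightest probe sets.

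In complex IV the differences were small and of 1 direction at the main probe sets. All 11 measured genes lay above 0 in MyLa at their brightest probe sets, with a median difference of 0.19, and 1 of 21 probe sets was higher and 1 lower by 1.5-fold. The higher one was COX7C 213846_at, with 12.80 and 12.08 in MyLa, and 12.67 and 12.68 in HH. The other 2 probe sets of COX7C, a small accessory subunit, differed by 0.29 and 0.32 in MyLa. In HH 8 of the 11 genes lay above 0, with a median of 0.03.

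Complex II, which also serves the tricarboxylic acid cycle, was represented by SDHA, SDHC and SDHD, with SDHB not analysed here. SDHA, the flavoprotein that oxidises succinate, had 12.39 with IL-32γ and 12.77 without it in MyLa, and 12.99 and 13.20 in HH. SDHD, a membrane anchor, had 11.38 and 11.63 in MyLa, and 12.77 and 12.54 in HH. SDHC, the other membrane anchor, had 13.49 and 13.40 in MyLa, and 13.44 and 13.36 in HH at its brightest probe set. Only SDHC 216591_s_at was past 1.5-fold, with 10.72 and 9.90 in MyLa, and 10.51 and 9.93 in HH.

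**Figure D2:**
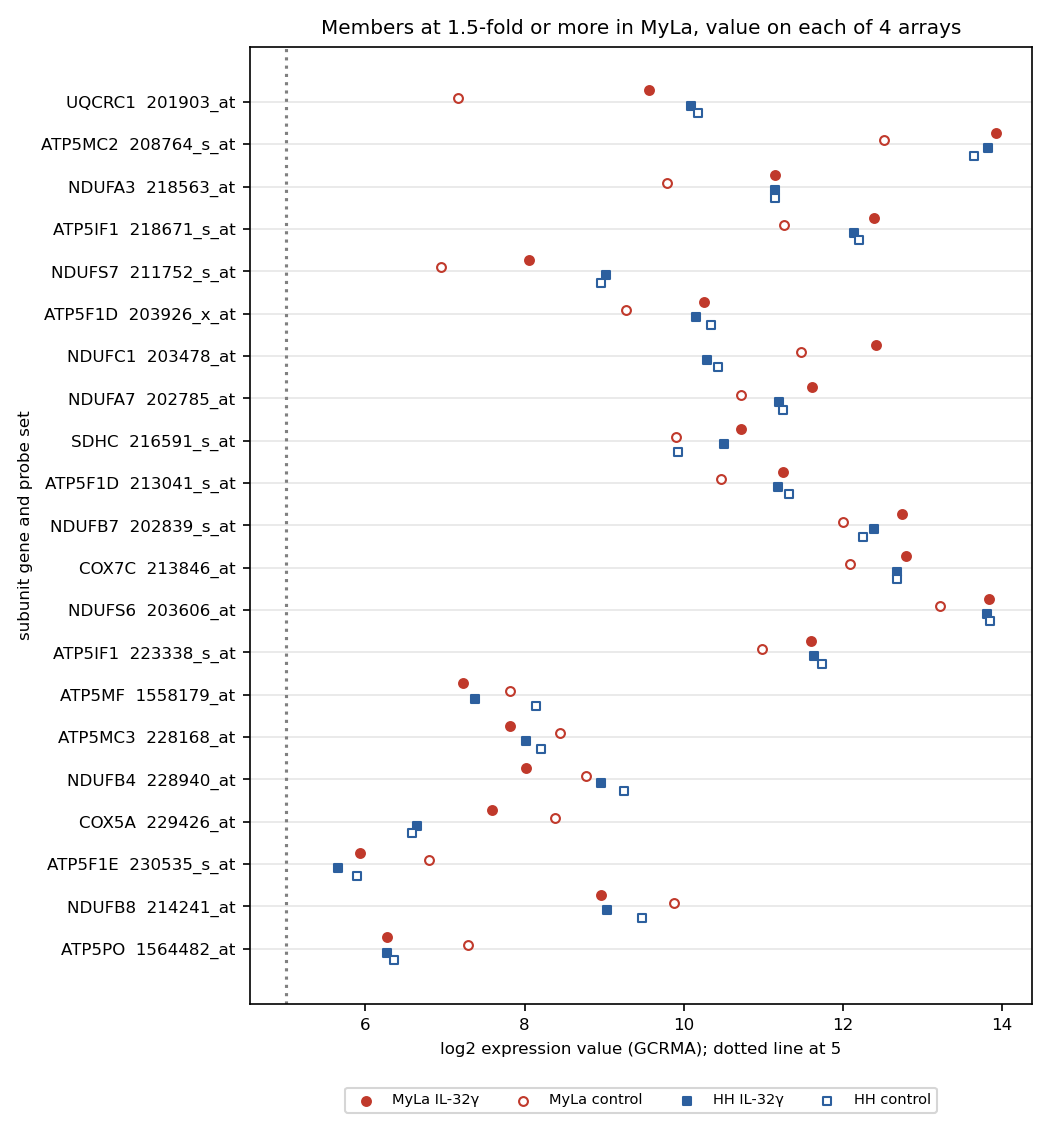
Log2 expression value (x axis) on each of the 4 arrays for the 21 subunit probe sets (y axis) at 1.5-fold or more in MyLa, 1 point per array, ordered by the MyLa difference. Among the 14 higher probe sets the open red circle of the MyLa control array is the lowest of the 4 values in 13, all but NDUFC1. For UQCRC1 the other arrays have 9.57 to 10.18 and the MyLa control array 7.16. These 14 were selected for a MyLa control value below the MyLa IL-32γ value, which favours the control array as the lowest. The same share among all probe sets higher in MyLa was not counted.

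The 7 lower probe sets were mostly not the main ones of their genes. For 6 of them, a brighter probe set of the same gene was near 0 or above it. ATP5PO 1564482_at, for the subunit at the top of the peripheral stalk, had 6.27 with IL-32γ and 7.29 without it in MyLa, and 6.27 and 6.36 in HH, while the gene's brightest probe set differed by 0.02 in MyLa. NDUFB8 214241_at, for an accessory subunit of complex I, had 8.96 and 9.87 in MyLa, and 9.04 and 9.48 in HH, while the brightest differed by -0.07. COX5A 229426_at, for a matrix-side subunit of complex IV, had 7.59 and 8.38 in MyLa, and 6.64 and 6.59 in HH, while the brightest differed by 0.01. The same held for ATP5F1E 230535_s_at, with -0.88 against 0.12 at the brightest, NDUFB4 228940_at, with -0.75 against 0.22, and ATP5MC3 228168_at, with -0.63 against -0.07. The exception was ATP5MF 1558179_at, the only measured probe set of its gene, for a small subunit of the membrane part of complex V. It had 7.22 and 7.82 in MyLa, and 7.38 and 8.15 in HH, so both IL-32γ arrays lay below both control arrays.

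Probe sets of 1 subunit gene thus disagreed more in MyLa than in HH. Of 35 genes with several measured probe sets, the IL-32γ difference of the probe sets spread by 1.5-fold or more in 10 genes in MyLa, with a median spread of 0.43. In HH this was so in 3 genes, NDUFB6, NDUFC1 and SDHC, with a median spread of 0.15. The 10 in MyLa were ATP5F1E, ATP5IF1, ATP5PO, COX4I1, COX5A, NDUFA7, NDUFB4, NDUFB7, NDUFB8 and SDHC. Differences of all probe sets were also wider in MyLa, with quartiles of -0.29 and 0.23, against -0.20 and 0.13 in HH. The spread within other genes was not counted. Just past the threshold of 1.5-fold (0.58 on the log2 scale) in MyLa stood ATP5MF at -0.60 and ATP5IF1 223338_s_at at 0.61, and just short of it NDUFA2 at 0.55 and COX4I1 227323_at at -0.54.

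The MyLa control array had the lowest of the 4 values for 59 of the 123 members measured on all arrays (48.0%), against 25.5% of all probe sets. The MyLa IL-32γ array was lowest for 29, the HH IL-32γ array for 19 and the HH control array for 16. Across 61 genes, which are not independent and share the 4 arrays, the log10 length of the gene's locus in RefSeq, introns included, correlated with the IL-32γ difference at r = -0.26 (Spearman's rho -0.36) in MyLa and at r = -0.36 (rho -0.27) in HH. For promoter GC content the correlation was r = 0.04 in MyLa and -0.07 in HH. Neither the length nor the GC correlation was computed over all genes.

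In HH the values of nearly all subunits with and without IL-32γ lay within 1.5-fold of each other. Of 127 probe sets measured on at least 1 HH array, 0 were higher by 1.5-fold or more, against 5.45% of all 23855. Lower by that much was ATP5MF 1558179_at alone (0.787%), at -0.76, against 4.02% of all probe sets. The median difference was -0.01, against -0.02 for all probe sets, and the quartiles were -0.08 and 0.04. SDHC 216591_s_at, at 0.58, stopped just short of 1.5-fold.

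**Figure D3:**
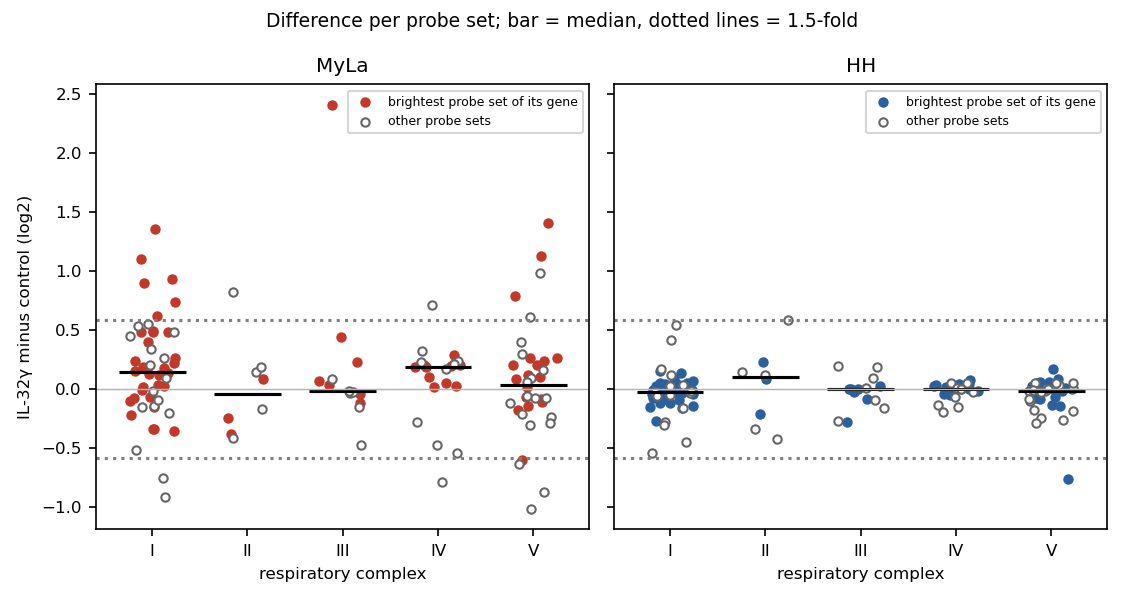
IL-32γ minus control in log2 units (y axis) for each measured subunit probe set by complex (x axis), MyLa left and HH right, filled for the brightest probe set of a gene and open for the others. Bars are medians and dotted lines mark 1.5-fold. MyLa points run from -1.01 to 2.41 and HH points from -0.76 to 0.58.

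Across both lines together no subunit passed the test. A limma fit to 25306 probe sets took the line as a block, and in it 0 of 126 members had an adjusted p below 0.05, against 0% of all probe sets, and the smallest adjusted p of any probe set was 0.483. Only 1 residual degree of freedom remained in this fit. At an unadjusted p below 0.05, 2 members were higher (1.59%), against 4.87% of all probe sets, and 4 were lower (3.17%), against 5.29%. The 2 higher were SDHC 216591_s_at (0.70 ± 0.14, SE) and NDUFC1 232146_at (0.49 ± 0.13), and the 4 lower were ATP5MF 1558179_at (-0.68 ± 0.13), NDUFB8 214241_at (-0.68 ± 0.18), NDUFB6 1559042_at (-0.53 ± 0.12) and SDHC 238191_at (-0.42 ± 0.12). Side by side, the differences of the 123 members in MyLa and HH correlated at r = 0.37 across probe sets, and those of all 20932 probe sets at r = 0.38.

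Between the lines, few subunit transcripts passed the test. MyLa was compared with HH in limma with the 2 arrays of a line, with and without IL-32γ, as its replicates, so their spread holds the response to IL-32γ, and nothing says that they came from separate cultures. Of 126 probe sets tested, 6 were higher in MyLa at an adjusted p below 0.05 and 2-fold or more (4.76%), against 18.2% of all 25306. Lower by the same threshold were 2 (1.59%), against 16.8%. At any size, 11 were higher and 14 lower, together 25 against 50.4% of all probe sets. The median absolute difference was 0.29 for subunits and 0.72 for all probe sets. Without the HH IL-32γ array the count past the threshold was 1, without the HH control array 2, and without the MyLa IL-32γ array 11, in place of 8.

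SDHD had 11.38 and 11.63 on the MyLa arrays with and without IL-32γ, against 12.77 and 12.54 on the HH arrays. Both MyLa arrays lay below both HH arrays, and SDHD was lower in MyLa, with a difference of -1.15 ± 0.16 (SE, limma adjusted p = 0.0097). UQCRB 209065_at, for the ubiquinone-binding subunit of complex III, averaged 9.74 ± 0.02 in MyLa and 10.99 ± 0.13 in HH (SD, n = 2 each), with a limma adjusted p of 0.0042 in a fit over all probe sets. The brighter UQCRB 205849_s_at had 14.22 and 14.15 in MyLa, and 14.52 and 14.52 in HH, a difference of -0.33.

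Higher in MyLa was NDUFC1 203478_at, which averaged 11.94 ± 0.66 in MyLa and 10.36 ± 0.10 in HH (SD, n = 2 each; limma adjusted p = 0.032). The difference was 2.12 between the IL-32γ arrays and 1.04 between the control arrays. SDHC was higher at 2 dimmer probe sets, 238056_at by 1.58 ± 0.17 (SE, limma adjusted p = 0.0054) and 238191_at by 1.00 ± 0.24 (adjusted p = 0.036), while its brightest differed by 0.05. The other 3 were also dimmer probe sets of their genes: COX5A 229426_at by 1.37, COX4I1 227323_at by 1.14 and NDUFA7 1557532_at by 1.03, where the brightest differed by 0.40 for COX5A, 0.27 for COX4I1 and -0.06 for NDUFA7. Apart from SDHD and NDUFC1, no brightest probe set of a subunit gene passed both thresholds in the fit over all probe sets.

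Other wide gaps between the lines did not pass. UQCRC1 differed by -1.77 ± 0.89 (SE, limma adjusted p = 0.177), with -0.52 between the IL-32γ arrays and -3.02 between the control arrays. NDUFS7 differed by -1.49 ± 0.42 (adjusted p = 0.052), with -0.97 between the IL-32γ arrays and -2.01 between the control arrays. Of complex III, where 13 probe sets had a median of -0.33, CYC1 differed by -0.63 ± 0.14 (adjusted p = 0.033), short of 2-fold. ATP5PD of the peripheral stalk differed by -0.84 ± 0.13 (adjusted p = 0.012), and NDUFA13, an accessory subunit of complex I also known for a part in cell death signalling, was higher by 0.60 ± 0.12 (adjusted p = 0.022).

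**Figure D4:**
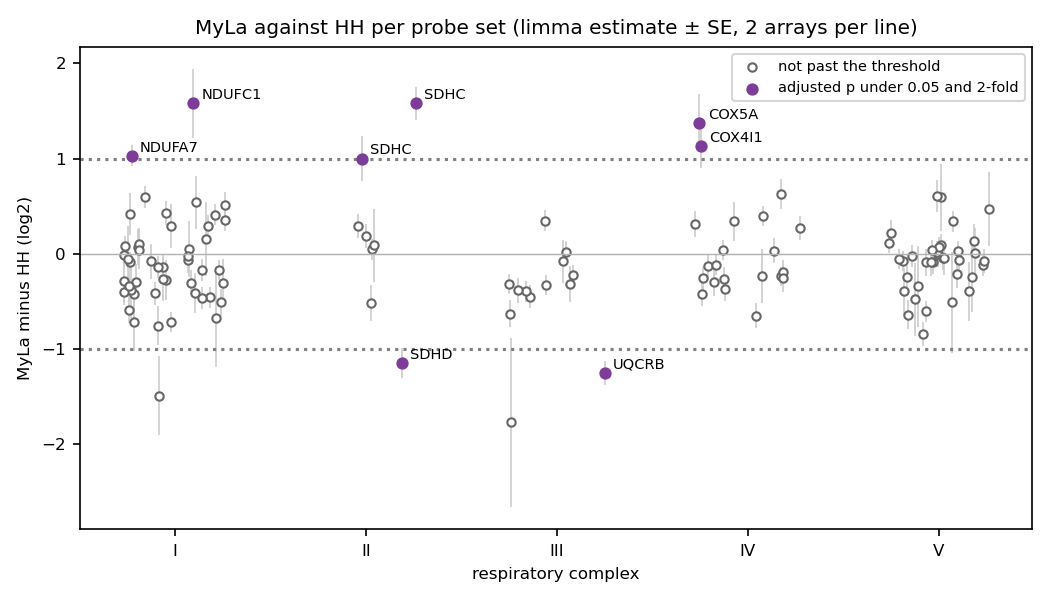
MyLa minus HH in log2 units (y axis; limma estimate with its SE, 2 arrays per line) for each tested subunit probe set by complex (x axis). Filled points passed an adjusted p of 0.05 and 2-fold, 6 above 0 and 2 below it, and dotted lines mark 2-fold.

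Since most subunit genes had bright probe sets, the counts were repeated among bright ones. Among 4226 probe sets averaging 12 or more, of which 78 were subunits, 1 subunit passed the threshold between lines (1.28%), against 11.3% of such probe sets. In MyLa 4 of the 78 were past 1.5-fold in either direction (5.13%), against 4.14%, and in HH 0, against 0.402%. The low share between lines was thus also found among probe sets of like brightness, while the share past 1.5-fold in MyLa was close to theirs.

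**Figure D5:**
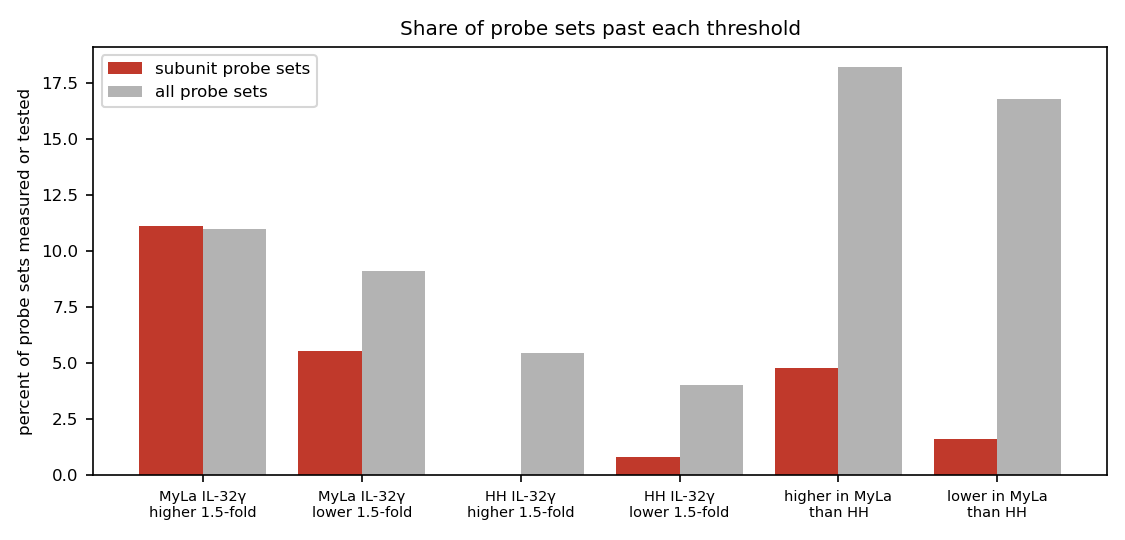
Percent of probe sets (y axis) past each threshold (x axis), subunit probe sets in red and all probe sets in grey. Bars start at 0. Subunits stand at 11.1% against 11% for higher values in MyLa, and at 4.76% against 18.2% for higher values in MyLa than HH.

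Proteins that build or serve the complexes were counted in lists of known members. Of 28 probe sets of complex I assembly factors, 3 were higher and 1 lower by 1.5-fold in MyLa, and the counts of each list stand against 11% higher and 9.13% lower over all probe sets. NDUFAF3 had 8.93 with IL-32γ and 7.77 without it in MyLa, and 8.80 and 8.63 in HH, whereas DMAC1 224860_at had 6.35 and 7.66 in MyLa, and 8.28 and 7.68 in HH. The brighter DMAC1 224879_at had 10.75 and 10.92 in MyLa, and 11.79 and 12.02 in HH, within 1.5-fold in both lines. Complex II assembly factors held 0 higher and 2 lower of 5, both SDHAF1, and complex III factors 1 and 1 of 11. Both of these complex III probe sets were of UQCC1, 244795_at at 1.30 and the brighter 217935_s_at at -0.82 in MyLa. Complex IV factors held 1 and 1 of 37. COX16 had 11.09 and 10.34 in MyLa, and 12.91 and 12.77 in HH. ATP synthase factors, a list that includes the 3 ATP5IF1 probe sets, held 2 and 2 of 20, and the carriers 1 and 0 of 5, the higher one being NDUFAB1, an acyl carrier protein, with 13.45 and 12.84 in MyLa.

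The tricarboxylic acid cycle enzymes held 0 higher and 0 lower of 19 probe sets in both lines, with medians of -0.08 in MyLa and -0.14 in HH. Of 29 probe sets for regulators of mitochondrial gene expression, 1 was higher and 2 lower in MyLa. ESRRA, a nuclear receptor of oxidative genes, had 7.01 and 6.43 in MyLa, and 7.57 and 7.68 in HH at 203193_at, and 8.89 and 8.69 in MyLa, and 9.78 and 10.07 in HH at the brighter 1487_at. PPARGC1B, a coactivator, had 6.98 and 7.59 in MyLa, and 9.20 and 9.19 in HH. The other lower probe set was POLG 217635_s_at, with 5.93 and 6.80 in MyLa and values below 5 in HH. The brighter POLG 203366_at had 11.67 and 11.93 in MyLa. In HH the lists together held 3 higher and 2 lower probe sets, where 5.45% of all probe sets were higher and 4.02% lower. Between lines 8 of 28 complex I assembly probe sets were lower and 2 higher in MyLa at an adjusted p below 0.05 and 2-fold in limma, where 16.8% of all probe sets were lower and 18.2% higher. Complex IV factors held 6 higher and 4 lower of 37, regulators 5 and 5 of 31, ATP synthase factors 2 and 3 of 20, complex III factors 0 and 3 of 11, complex II factors 0 and 1 of 5, carriers 0 and 0 of 5, and the cycle enzymes 0 and 1 of 19. The mitochondrially encoded subunits were not analysed here.

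Of the RNA genes beside subunit genes, NDUFV2-AS1 had 6.50 with IL-32γ and 7.81 without it in MyLa, and 6.29 and 6.32 in HH at 239450_at, and 8.91 and 9.45 in MyLa, and 7.88 and 7.87 in HH at 242676_at. Its neighbour NDUFV2 differed by -0.34 in MyLa. NDUFB2-AS1 had 9.08 and 8.86 in MyLa, and 8.30 and 8.37 in HH, and NDUFV1-DT was below 5 on all arrays.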

How the data were processed

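Labelled total RNA of the MyLa and HH lines was measured on 4 arrays. Each probe set has a log2 expression value that the authors deposited after GCRMA, per the submitters' processing notes. GCRMA subtracts a background modelled from probe sequence, normalises and summarises, which piles undetected probe sets up near the lowest value. The sources used here do not give its version, and the log2 scale was inferred from the range of the values.

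Symbols came from the array's annotation, with 41097 of 54675 probe sets having 1 symbol, 1801 several and 11777 not listed, and 41043 were updated through RefSeq (GRCh38.p14). Within a line the difference was IL-32γ minus control after raising values below 5 to 5, for probe sets at 5 or more on at least 1 array. limma 3.58.1 (R 4.3.3) was fitted to all probe sets at 5 or more on at least 2 arrays, two-sided, with Benjamini-Hochberg adjustment over all. On simulated data limma was checked only for median estimates close to the planted changes. The fit to the arrays had 1 residual degree of freedom for IL-32γ with the line as a block, and 2 between lines.

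Members, lists and tests were chosen with earlier results of these data known. Named were the 8 highest and 8 lowest differences per line, the 10 highest and 10 lowest between lines, every member past a threshold, tissue isoforms and their partners, complex II, genes with disagreeing probe sets and up to 4 probe sets of a pathway list. Others, such as NDUFS1, NDUFV2, UQCRC2, ATP5F1A, ATP5F1B and CYC1, were chosen after their values were seen. Alternatives were other floors, scalings, thresholds, blocks, an intensity trend, 1 value per gene and leaving out arrays. Software was Python 3.11.15 with numpy 2.4.6, pandas 2.3.3, matplotlib 3.10.9 and scipy 1.17.1. The number of arrays limits the precision.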

Additional observations from a re-analysis of the deposited data

Results flagged for a closer look

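For 11 of the 21 probe sets past 1.5-fold in MyLa, of 9 subunit genes, the IL-32γ difference in HH had the opposite sign. In HH 42.5% of members and 44.5% of all probe sets lay above 0, so a sign below 0 was the more common one there. The share with opposite signs over all probe sets was not counted. With 1 array per condition the difference between the lines was not tested, and the HH values were all close to 0. UQCRC1 stood at 2.41 in MyLa and -0.09 in HH, NDUFA3 at 1.36 and -0.0036, NDUFC1 at 0.93 and -0.14, NDUFA7 at 0.89 and -0.04, and NDUFS6 at 0.62 and -0.04. In complex V, ATP5IF1 had 1.12 and 0.61 at 2 probe sets in MyLa, with -0.07 and -0.10 in HH, and ATP5F1D had 0.98 and 0.78, with -0.18 and -0.14. COX7C 213846_at had 0.71 in MyLa and -0.0028 in HH. COX5A 229426_at ran the other way, with -0.79 in MyLa and 0.05 in HH.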

How the results depend on the processing

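The count of subunit probe sets at 1.5-fold or more in MyLa was 21, and became 6 at 2-fold, 42 at a log2 difference of 0.32, 11 with the brightest probe set per gene, 8 with a gene's probe sets averaged and 12 without probe sets ending in _s_at, _x_at or _a_at. Fewer probe sets enter the last 3. The median MyLa difference of 0.09 changed sign to -0.04 in the last of these, and the cause was not tested. In HH the count of 1 became 0 at 2-fold, 8 at a log2 difference of 0.32, 3 with a floor of 4, 3 with no floor and no filter, 2 with median-centred arrays, 3 with quantile normalization and 2 with cyclic loess. Between lines the count of 8 became 25 with no fold minimum, 2 with no floor and no filter, 3 with the brightest probe set per gene and 3 with them averaged, and ran from 1 to 11 when each array was left out, where the lone array of a line is assumed to vary like the other line. No member passed for IL-32γ across lines under any alternative, including no replicate block. With IL-32γ as a replicate block the count between lines was 9. Leaving out an array in the IL-32γ fit leaves no residual degree of freedom and was not run. Other floors and choices of probe set subtract the same array values, so only the scalings could move the named MyLa differences by much. The named MyLa differences kept their direction and side of 1.5-fold in all 149 alternative values, most of them fixed in this way. The named line differences did so in 82, and in 32 kept their direction but missed a threshold. The shares of members above 0 in MyLa and lowest on its control array were added after the data were seen, and ran under the scalings from 60.0% to 61.6% and from 44.7% to 50.4%. Without probe sets ending in _s_at, _x_at or _a_at they were 44.6% and 33.9%, against 61.1% and 48.0% with them. With no floor and no filter 55.0% lay above 0, and with the brightest probe set per gene 73.2% lay above 0 and 57.7% were lowest on the MyLa control array. Dim probe sets, below 5, limit what can be said of tissue isoforms.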
